A study of Mus musculus with 18 samples.

Results

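The genes described here encode 5 families of detoxification enzymes in mouse colon: the cytosolic glutathione transferases (Gst, 21 genes), the microsomal glutathione transferases (Mgst, 3 genes), the UDP-glucuronosyltransferases (Ugt, 21 genes), the sulphotransferases (Sult, 18 genes) and the carboxylesterases (Ces, 18 genes). They were taken by symbol, as every row of the expression table whose gene name belongs to 1 of these families, which gave 81 of 27131 rows. The rule used gene names alone, so the Gst genes include Gstk1, of mitochondria and peroxisomes. Likewise the Ces genes include Ces2d-ps, annotated as a pseudogene, and the Ugt genes include Ugt8a, a ceramide galactosyltransferase. Of the 81 genes, 47 had a mean of at least 1 FPKM (fragments per kilobase of transcript, scaled to the mapped fragments of the library) over all libraries and were tested: 18 Gst, 3 Mgst, 11 Ugt, 5 Sult and 10 Ces genes. The other 34 were under that level, and 14 of them were listed at 0 in every library.

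The study compared colon RNA of 2 groups of untreated C57BL/6 mice, with 9 libraries each. The first group, called WT, carried the genotype Hif2a +/+. The second, called HIF2, is described as overexpressing HIF2 in the colon, and its genotype is given as Hif2a LFL in the sample labels and as LSL in the design text. The labels give neither the age of the mice nor the promoter or Cre line that drives the allele, and they do not say whether each library came from a separate mouse. The p-values therefore reflect library-to-library spread, some of which may be technical.

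Hypoxia-inducible factor 2α (HIF-2α, encoded by Epas1) is a transcription factor that is degraded when oxygen is plentiful. Conjugating enzymes make reactive or fat-soluble molecules easier to excrete. Glutathione transferases attach glutathione to electrophiles, UDP-glucuronosyltransferases attach glucuronic acid to phenols, bile pigments and steroids, and sulphotransferases attach sulphate from the donor PAPS. Carboxylesterases split esters of drugs and lipids and so expose groups that can be conjugated. In the colon these enzymes are chiefly products of the epithelium, which meets dietary and bacterial chemicals first.

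The deposited FPKM values summed to between 686539 and 937505 per library. The table holds no read counts and so no depth. The most common ratio of low values to those of WT replicate 0 ran from 0.983 to 1.39 over the other libraries. Epas1 itself was at 18.8 ± 3.09 FPKM in WT and 22.7 ± 6.36 FPKM in HIF2 (mean ± SD, n = 9 each), with 5 HIF2 libraries inside the WT range, and did not pass the test (log2 difference 0.24, SE 0.14, limma adjusted p = 0.246). Slc11a2, an iron importer and known HIF-2α target, was at 12.8 to 19.0 FPKM in WT. In HIF2 it was at 1524.9 to 2101.0 FPKM in replicates 6, 7 and 8 and at 229.3 to 469.4 FPKM in replicates 0, 1, 3 and 5, but at 16.5 and 18.2 FPKM, within the WT range, in replicates 2 and 4. The 9 libraries labelled HIF2 were therefore not alike, and Slc11a2 did not set replicates 2 and 4 apart from WT. All HIF2 means include these 2 libraries. The summed level of 12 smooth muscle markers was 24.9 to 1198.3 FPKM in WT and 66.0 to 3646.5 FPKM in HIF2. Its mean log2 level was 1.35 to 3.45 in WT other than replicate 3, where it was 5.72, and 2.18 to 3.37 in HIF2 replicates 6 to 8, against 6.07 to 7.13 in HIF2 replicates 0 to 5. The mean log2 level of 12 epithelial markers was between 8.48 and 9.03 in every library. In bulk tissue, fewer cells of a type and less RNA per cell cannot be told apart.

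The enzymes were lower in HIF2 more often than higher. Of the 47 genes tested, 13 were lower and 1, Gsta4, was higher, by limma on log2(FPKM + 1) with an adjusted p under 0.05 over all genes tested. The lower genes were 27.7% of those tested, whereas 11.1% of all 13976 genes tested were lower and 11.0% were higher. The median log2 difference (HIF2 minus WT) was -0.32 over the 47 genes and -0.021 over all genes. Negative differences numbered 35 of the 47, against 7426 of all 13976. Every WT library exceeded every HIF2 library for 2 genes, Sult2b1 and Ces1e, which is 4.26% of the 47 genes against 1.27% of all genes tested. For 0 of the 47 genes did every HIF2 library exceed every WT library, against 0.758% of all genes. By family, 2 of 18 Gst, 0 of 3 Mgst, 4 of 11 Ugt, 3 of 5 Sult and 4 of 10 Ces genes were lower. An unadjusted p under 0.05 by limma was reached by 24 of the 47 genes and by 4707 of all 13976.

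**Figure D1:**
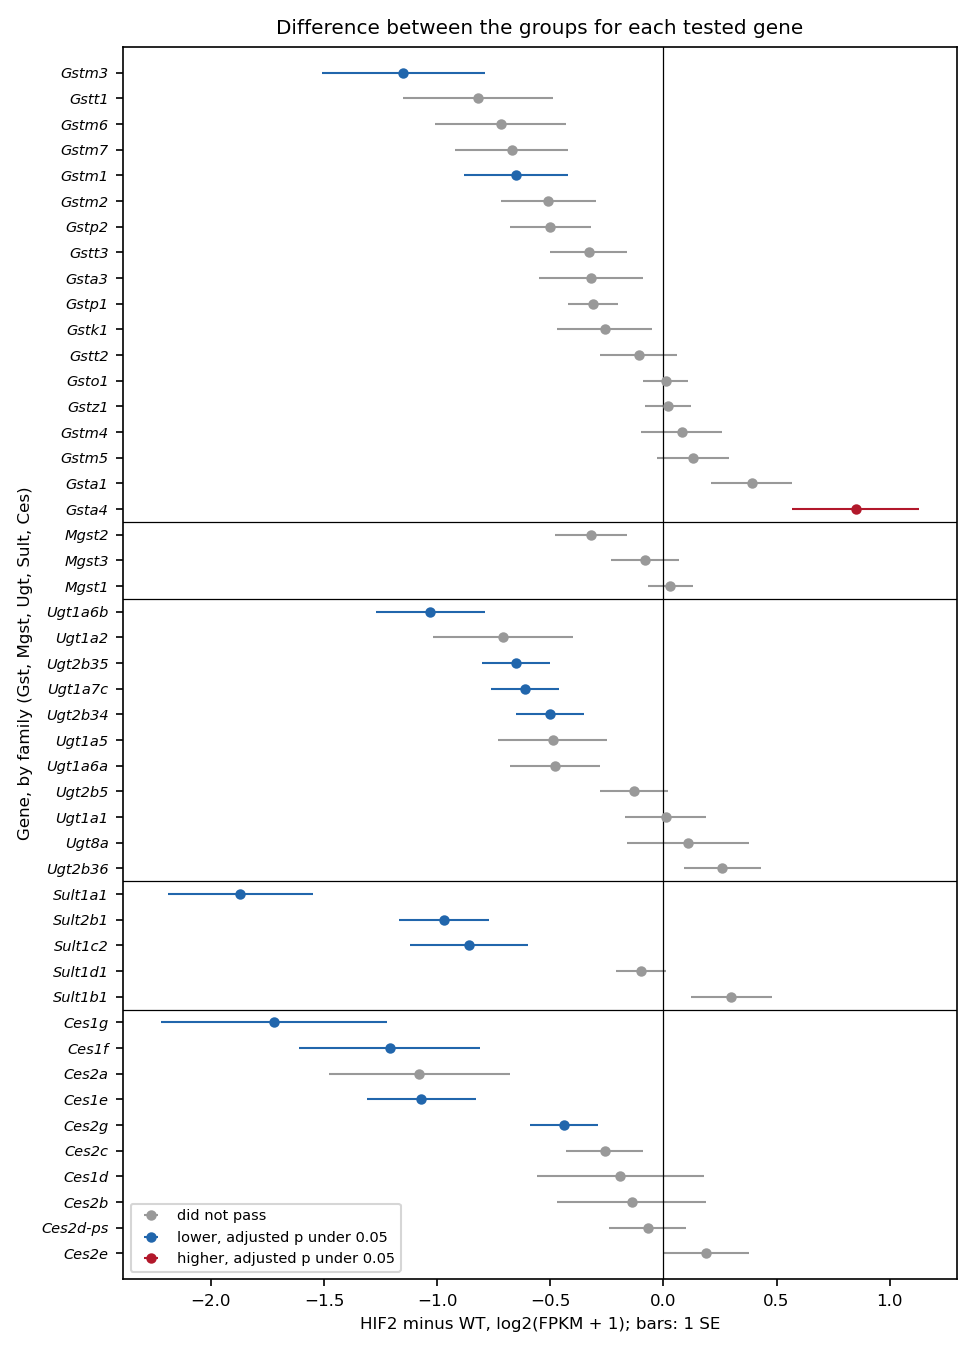
Log2 difference in FPKM (HIF2 minus WT, horizontal axis, with standard error bars) for the 47 tested genes, grouped by family, with genes past the adjusted p threshold in blue (lower) or red (higher) and the others in grey. The 13 blue points lie left of 0, and the red point is Gsta4, at 0.85.

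The promoter sequences of 4 of the lower genes are shown because they contain, or lack, the short core letters that HIF factors read, ACGTG or GCGTG on either strand. Each run is the 250 bases before a RefSeq transcript start in mm10 (GRCm38.p6), 5′ to 3′ on the gene's strand, with matches in capitals. The Sult2b1 and Gstm1 runs belong to a second annotated start of each gene. For Sult1a1 the run is chr7:126676419-126676668 on the minus strand, for Sult2b1 chr7:45742479-45742728 on the minus strand, for Ugt2b35 chr5:87000610-87000859 on the plus strand and for Gstm1 chr3:108017819-108018068 on the minus strand.
Sult1a1: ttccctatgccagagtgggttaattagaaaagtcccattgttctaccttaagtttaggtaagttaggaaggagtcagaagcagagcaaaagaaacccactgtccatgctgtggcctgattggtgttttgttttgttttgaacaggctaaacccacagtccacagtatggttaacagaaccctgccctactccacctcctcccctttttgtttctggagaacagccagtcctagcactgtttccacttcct
Sult2b1: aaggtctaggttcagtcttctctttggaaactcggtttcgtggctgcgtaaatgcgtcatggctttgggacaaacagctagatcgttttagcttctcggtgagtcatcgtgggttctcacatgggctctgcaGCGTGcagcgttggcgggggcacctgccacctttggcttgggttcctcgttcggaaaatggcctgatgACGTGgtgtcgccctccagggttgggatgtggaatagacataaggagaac
Ugt2b35: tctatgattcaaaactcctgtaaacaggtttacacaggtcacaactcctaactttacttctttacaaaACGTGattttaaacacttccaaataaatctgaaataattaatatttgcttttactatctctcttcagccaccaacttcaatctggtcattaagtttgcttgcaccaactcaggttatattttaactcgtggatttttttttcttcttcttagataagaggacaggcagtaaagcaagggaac
Gstm1: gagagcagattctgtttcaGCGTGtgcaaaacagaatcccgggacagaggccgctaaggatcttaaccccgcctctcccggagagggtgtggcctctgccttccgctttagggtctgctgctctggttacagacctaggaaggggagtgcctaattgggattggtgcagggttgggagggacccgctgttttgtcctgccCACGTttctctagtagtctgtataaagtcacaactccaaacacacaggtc
Sult1a1 held neither core. Sult2b1 held ACGTG starting at position -50 and GCGTG at -118 from the transcript start, and Ugt2b35 held ACGTG at -182. Gstm1 held CACGT, the reverse complement of ACGTG, at -50 and GCGTG at -231. Before the other annotated start of Sult2b1, whose run is not printed, neither core was found. Before the other start of Gstm1 there was GCGTG at -76 and no ACGTG.

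Windows were given for 68 of the 81 genes, 40 of the tested genes and 11 of the lower genes. ACGTG was in 3 of those 11 and in 6 of 68, or 8.8%, against 18.5% of 27025 genes in the same table. GCGTG was in 14.7% of the 68 genes against 30.9% of all genes. The NRF2 element letters TGACNNNGC were in 4 genes, Gsta3, Gstm5, Gstm7 and Mgst1, or 5.9% against 11.5%, and in 0 of the 11 lower genes. The aryl hydrocarbon receptor letters TNGCGTG, which contain GCGTG, were in 4.4% against 4.8%, and the interferon response element in 4.4% against 3.5%. A match is a stretch of letters and not a bound site.

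Over all 18 libraries, the largest fall among the 47 genes on the log2(FPKM + 1) scale was that of the sulphotransferase gene Sult1a1. With a pseudocount of 0.1 or 0.01 in place of 1, the difference of Ces1g was larger, at -2.05 and -2.10. The difference of Ces1g was also larger with either marker covariate and for HIF2 replicates 6 to 8. Sult1a1, which sulphates small phenols, lies on chromosome 7 at 126672865 to 126676432 (mm10, minus strand). Its level ran from 185.3 to 396.4 FPKM in WT, with a median of 251.9, and from 21.8 to 186.2 FPKM in HIF2, with a median of 59.0. The groups overlapped only through HIF2 replicate 2, at 186.2 FPKM, just above WT replicate 3, at 185.3 FPKM. The highest HIF2 values were those of replicates 2 and 4, at 186.2 and 177.8 FPKM, the libraries with Slc11a2 in the WT range. Means were 274.3 ± 75.1 FPKM in WT and 86.4 ± 57.3 FPKM in HIF2 (SD, n = 9 each), a log2 difference of -1.87 (SE 0.32, limma adjusted p = 0.00047). This is the gene whose promoter run above holds neither core.

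Sult2b1, a sulphotransferase of cholesterol and related sterols (chromosome 7, 45729983 to 45784669, minus strand), was at 19.5 to 30.5 FPKM in WT with a median of 23.9. In HIF2 it was at 5.17 to 19.0 FPKM with a median of 13.9. All 9 HIF2 libraries were below all 9 WT libraries, with means of 24.2 ± 3.49 and 12.7 ± 5.01 FPKM (log2 difference -0.97, SE 0.20, limma adjusted p = 0.00217). Sult1c2 (chromosome 17, 53829637 to 53846339, minus strand) was at 12.0 to 44.1 FPKM in WT and 4.77 to 23.4 FPKM in HIF2, with medians of 30.7 and 15.4 (log2 difference -0.86, SE 0.26, limma adjusted p = 0.0235). Its ranges overlapped through WT replicate 3, the lowest WT library. With the smooth muscle marker level as a covariate, the limma adjusted p of Sult1c2 was 0.401. Its log2 difference stayed between -1.01 and -0.43 over all alternatives.

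The remaining tested sulphotransferases did not pass. Sult1b1, which acts on thyroid hormone and phenols, was at 54.1 to 111.4 FPKM in WT and 60.4 to 167.7 FPKM in HIF2 (log2 difference 0.30, limma adjusted p = 0.271), and its highest 3 values were those of HIF2 replicates 6, 7 and 8, at 152.6, 167.7 and 145.2 FPKM. Sult1d1, a sulphotransferase of amines and phenols, ranged from 178.9 to 307.5 FPKM in WT and from 180.5 to 271.4 FPKM in HIF2, so all 9 HIF2 libraries lay inside the WT range (log2 difference -0.10, SE 0.11, limma adjusted p = 0.598). The summed level of the family was 661.8 ± 128.6 FPKM in WT and 455.4 ± 82.7 FPKM in HIF2, and Sult1a1 made up 41.4% of the WT sum. Sult4a1, under the level for testing, was at 0.0 to 0.696 FPKM in WT and 0.331 to 2.47 FPKM in HIF2, and Sult5a1 was listed at 0 in all 9 WT libraries and reached 0.914 FPKM in HIF2. Sult4a1 was at 1.74 to 2.47 FPKM in HIF2 replicates 0 to 4 but at 0.331 to 0.54 FPKM in replicates 5 to 8. Its highest WT value was that of replicate 3. Sult5a1 was at 0.0, 0.246 and 0.0 FPKM in HIF2 replicates 6, 7 and 8. With no filter on low values, both passed, with limma adjusted p of 0.00789 and 0.0285, in a fit where 2407 genes of the whole table were higher.

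**Figure D2:**
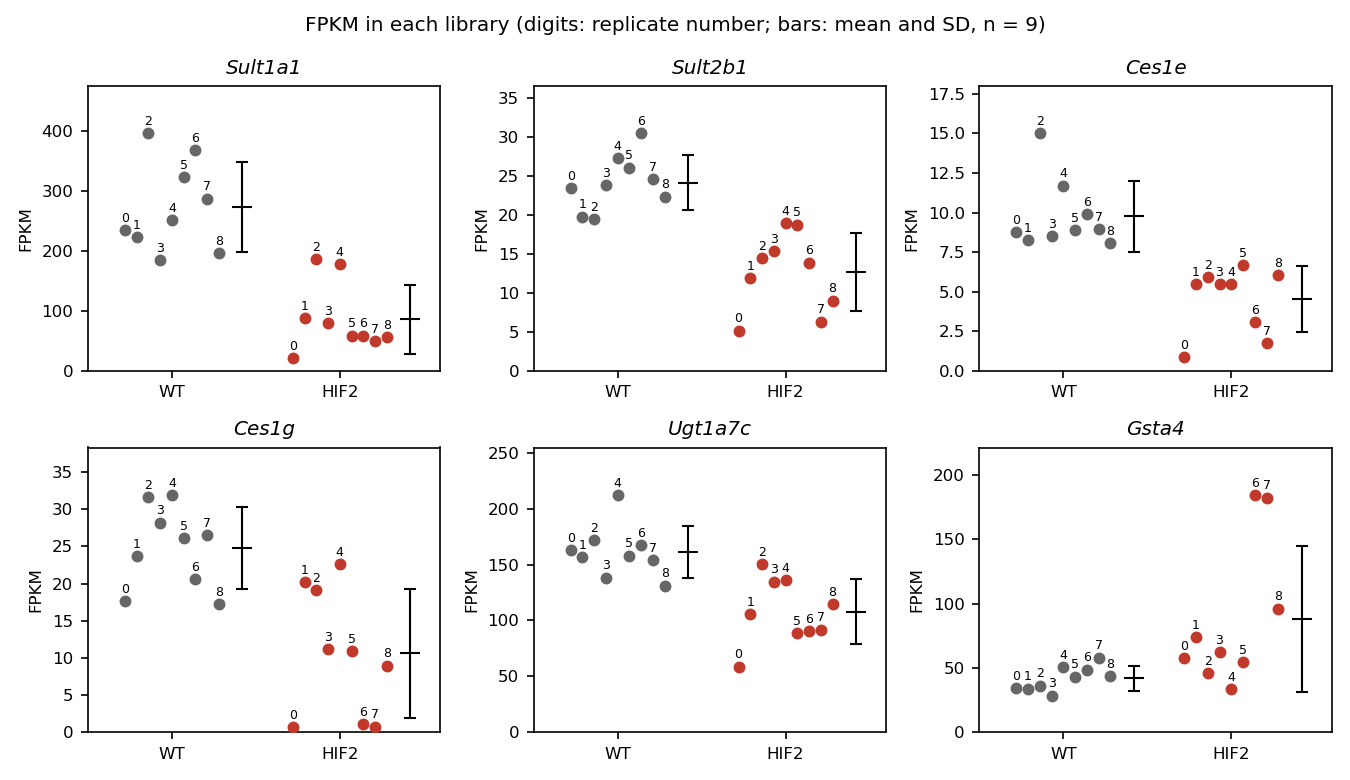
FPKM per library of 6 genes that passed the test (Sult1a1, Sult2b1, Ces1e, Ces1g, Ugt1a7c and Gsta4), with WT in grey, HIF2 in red, the replicate number above each point and the mean with its SD (n = 9) beside each group. For Sult2b1 and Ces1e the groups do not overlap, and for Gsta4 the highest 3 points are HIF2 replicates 6, 7 and 8.

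Among the carboxylesterases, Ces1e, Ces1f and Ces1g fell. The tested Ces1 genes are neighbours on chromosome 8, and 3 of 4 were lower, with a median log2 difference of -1.14. Ces1e (93201218 to 93229619, minus strand) was at 8.06 to 15.0 FPKM in WT and 0.853 to 6.7 FPKM in HIF2, with no overlap. Its means were 9.79 ± 2.24 and 4.54 ± 2.09 FPKM (SD, n = 9 each; log2 difference -1.07, SE 0.24, limma adjusted p = 0.00383). Ces1g, a lipid-hydrolysing esterase (93302369 to 93337308, minus strand), was at 17.2 to 31.9 FPKM in WT with a median of 26.1, and at 0.664 to 22.6 FPKM in HIF2 with a median of 10.9. It was lowest in HIF2 replicates 0, 6 and 7, at 0.664, 1.15 and 0.79 FPKM, and inside the WT range in replicates 1, 2 and 4 (log2 difference -1.72, SE 0.50, limma adjusted p = 0.019).

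Ces1f (93256236 to 93279747, minus strand) was at 46.2 to 83.9 FPKM in WT, at 6.07, 20.1, 13.5 and 9.22 FPKM in HIF2 replicates 0, 5, 6 and 7, and at 48.6 to 65.5 FPKM in the other 5 HIF2 libraries. The log2 difference was -1.21 (SE 0.40, limma adjusted p = 0.0345), and the adjusted p rose to at most 0.0645 when WT replicate 0, 2, 4, 5, 6 or 7 or HIF2 replicate 0, 5, 6 or 7 was left out. Ces1d, a triglyceride hydrolase of the same cluster, was at 18.8 to 56.0 FPKM in WT and 7.45 to 71.7 FPKM in HIF2 and did not pass (log2 difference -0.19, limma adjusted p = 0.769).

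The Ces2 genes lie further along chromosome 8 (Ces2a at 104734003 to 104741634, plus strand), and 5 of the 6 tested did not pass. Ces2g (104961718 to 104969537, plus strand), the only 1 of 6 that was lower, was at 5.8 ± 1.1 FPKM in WT and 4.1 ± 1.4 FPKM in HIF2 (log2 difference -0.44, SE 0.15, limma adjusted p = 0.0375), with ranges of 4.09 to 7.62 and 2.14 to 6.92 FPKM. Leaving out any 1 of WT replicates 0, 1, 4, 5, 6, 7 and 8 and HIF2 replicates 0 to 5 took its adjusted p above the threshold, to at most 0.0723. The log2 difference of Ces2g was -0.12 (limma adjusted p = 0.676) with the smooth muscle marker level as a covariate, -0.30 (0.191) with the epithelial level and -0.06 (0.797) for HIF2 replicates 6 to 8 against WT without replicate 3. Ces2a was at 166.6 to 216.6 FPKM in 8 WT libraries but at 40.6 FPKM in WT replicate 3, and at 16.1 to 172.5 FPKM in HIF2 (log2 difference -1.08, SE 0.40, limma adjusted p = 0.0609). The adjusted p was 0.0107 without WT replicate 3, 0.0394 without HIF2 replicate 3, 0.0446 without HIF2 replicate 4 and 0.0491 without HIF2 replicate 8.

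Ces2e, the most abundant carboxylesterase in WT with 27.7% of the family's sum, was at 135.9 to 212.5 FPKM in WT. It was at 139.7 to 211.3 FPKM in HIF2 replicates 0 to 5 and at 336.0, 313.8 and 343.3 FPKM in HIF2 replicates 6, 7 and 8, and the overall difference did not pass (log2 difference 0.19, limma adjusted p = 0.519). Ces2c was at 146.8 ± 20.1 FPKM in WT and 126.9 ± 36.8 FPKM in HIF2 (limma adjusted p = 0.294), and Ces2b at 10.5 ± 3.82 and 10.9 ± 6.71 FPKM (limma adjusted p = 0.806). The family's sum was 654.3 ± 83.8 FPKM in WT and 540.4 ± 160.5 FPKM in HIF2.

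The Ugt family had 4 lower genes of 11 tested and 0 higher. An unadjusted p under 0.05 by limma was reached by 6 of the 11, against 4707 of all 13976 genes tested. Ugt2b34 (chromosome 5, 86889767 to 86906937, minus strand), the most abundant member of the family, was at 217.2 to 319.4 FPKM in WT with a median of 285.2. In HIF2 it was at 90.0 to 245.0 FPKM with a median of 221.9, and the lowest value was that of replicate 0. Means were 283.5 ± 33.8 and 206.6 ± 48.0 FPKM (SD, n = 9 each; log2 difference -0.50, SE 0.15, limma adjusted p = 0.0267). With the smooth muscle marker level as a covariate, its limma adjusted p was 0.286. Its log2 difference stayed between -0.577 and -0.336 over all alternatives. Ugt2b35 (chromosome 5, 87000860 to 87013275, plus strand) was at 10.8 to 17.2 FPKM in WT and 3.91 to 13.6 FPKM in HIF2, and 7 HIF2 libraries lay below the WT range (log2 difference -0.65, SE 0.15, limma adjusted p = 0.00546).

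The Ugt1a genes of chromosome 1 are alternative first exons joined to shared later exons, so their separate FPKM values depend on how shared reads were divided. Of the 50-base stretches of the longest transcript, 30.7% were unique to the gene for Ugt1a7c and 19.3% for Ugt1a6b. Ugt1a7c (88095062 to 88220002, plus strand) was at 131.2 to 212.1 FPKM in WT and 58.6 to 150.3 FPKM in HIF2, with medians of 157.9 and 105.6 (log2 difference -0.61, SE 0.15, limma adjusted p = 0.00577). Ugt1a6b (88103252 to 88219003, plus strand) was at 4.87 to 22.7 FPKM in WT and 3.17 to 11.1 FPKM in HIF2, with medians of 13.9 and 5.39 (log2 difference -1.03, SE 0.24, limma adjusted p = 0.00451). All 9 HIF2 libraries were below the WT median for each of these 2 genes. Ugt1a1, the bilirubin glucuronosyltransferase (88211959 to 88218997, plus strand), was at 50.4 to 87.0 FPKM in WT and 50.1 to 143.2 FPKM in HIF2 (log2 difference 0.01, SE 0.18, limma adjusted p = 0.97), and 19.8% of its 50-base stretches were unique.

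Of the other abundant glucuronosyltransferases, Ugt1a6a, an enzyme of flat phenols, had means of 37.8 ± 5.99 FPKM in WT and 28.7 ± 11.6 FPKM in HIF2 (limma adjusted p = 0.0965). Ugt2b5 had means of 19.0 ± 4.91 and 16.9 ± 3.14 FPKM (limma adjusted p = 0.591). Ugt1a2 was at 5.44 ± 1.5 and 3.57 ± 2.67 FPKM (limma adjusted p = 0.113), and its adjusted p was 0.041 without HIF2 replicate 2. The family's sum was 618.8 ± 66.0 FPKM in WT and 465.1 ± 106.4 FPKM in HIF2, and 5 HIF2 libraries were below the WT range.

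Of the 18 Gst genes tested, 2 were lower (11.1%) and 1 was higher (5.56%), against 11.1% and 11.0% of all genes tested. Gsta4, which conjugates products of lipid peroxidation (chromosome 9, 78182774 to 78209349, plus strand), was at 28.5 to 58.1 FPKM in WT with a median of 43.2. In HIF2 it was at 184.3, 182.1 and 96.0 FPKM in replicates 6, 7 and 8 and at 33.8 to 74.0 FPKM in replicates 0 to 5. The 3 high libraries were also those with the highest Slc11a2. The means were 41.9 ± 9.5 and 87.8 ± 56.8 FPKM (SD, n = 9 each; log2 difference 0.85, SE 0.28, limma adjusted p = 0.0335). The adjusted p reached 0.0518 to 0.0596 when WT replicate 0, 1, 2 or 3 or HIF2 replicate 1, 6, 7 or 8 was left out, and it was 0.0632 by the exact rank test.

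Of the 7 mu class genes of chromosome 3, 2 were lower, 0 were higher, and the median log2 difference was -0.65. Gstm1 (108012255 to 108017973, minus strand) was at 72.2 to 102.8 FPKM in WT. In HIF2 it was at 71.8 to 96.6 FPKM in replicates 1 to 4 and at 22.6 to 41.9 FPKM in replicates 0, 5, 6, 7 and 8, so the HIF2 libraries formed a high and a low set. The log2 difference was -0.65 (SE 0.23, limma adjusted p = 0.0482), and leaving out any library other than HIF2 replicates 1 to 4 brought the adjusted p above the threshold, to at most 0.0825. By the exact rank test its adjusted p was 0.237. Gstm3 (107963696 to 107969283, minus strand) was at 13.2 to 20.5 FPKM in WT and 0.716 to 19.3 FPKM in HIF2, with medians of 16.4 and 8.43 (log2 difference -1.15, SE 0.36, limma adjusted p = 0.0284). Its adjusted p was 0.0507 without WT replicate 5 and 0.0513 to 0.0522 without HIF2 replicate 5, 6 or 7. In Gstm1 and Gstm3, 76.9% and 71.2% of the 50-base stretches were unique.

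Gstm2, at 54.0 ± 9.54 and 39.7 ± 12.2 FPKM (limma adjusted p = 0.0964), and Gstm6, at 12.6 ± 2.78 and 8.2 ± 4.49 FPKM (limma adjusted p = 0.0841), had negative differences that did not pass, and Gstm6 reached 0.0283 without HIF2 replicate 2. Gstm7 was at 9.2 ± 2.56 and 5.77 ± 2.33 FPKM (limma adjusted p = 0.0663), with 0.041 when HIF2 replicate 4 was left out. Gstm5 was at 32.8 ± 7.27 and 36.1 ± 8.01 FPKM (limma adjusted p = 0.612). The pi class was near the threshold: Gstp1, which conjugates many electrophiles, was at 93.7 to 125.2 FPKM in WT and 57.8 to 121.2 FPKM in HIF2 (log2 difference -0.31, SE 0.11, limma adjusted p = 0.051). Without WT replicate 1 its adjusted p was 0.0467, and without HIF2 replicate 2, 3 or 4 it was 0.0498, 0.0175 and 0.0481. Gstp2 differed by -0.50 on the log2 scale (limma adjusted p = 0.054), with 0.0323 to 0.0491 when HIF2 replicate 2, 3 or 4 or WT replicate 1 or 8 was left out. The copies are nearly identical: 37.7% of the stretches of Gstp1 and 27.4% of those of Gstp2 were unique.

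Gsto1, which handles glutathione-dependent reduction, was the most abundant cytosolic glutathione transferase, with 34.3% of the family's WT sum. It was at 254.2 to 323.9 FPKM in WT and 222.8 to 396.8 FPKM in HIF2 (log2 difference 0.01, SE 0.10, limma adjusted p = 0.949). Gstk1, of mitochondria and peroxisomes, was at 50.1 ± 12.1 and 43.3 ± 15.8 FPKM (limma adjusted p = 0.431). Gstz1, the maleylacetoacetate isomerase of tyrosine breakdown, was at 17.2 ± 1.88 and 17.6 ± 3.5 FPKM (limma adjusted p = 0.907). The theta class genes Gstt1 (17.6 ± 5.8 and 10.6 ± 5.55 FPKM, limma adjusted p = 0.0871), Gstt2 (20.9 ± 4.03 and 20.0 ± 6.91 FPKM, 0.72) and Gstt3 (31.5 ± 4.08 and 25.7 ± 6.84 FPKM, 0.181) and the alpha class gene Gsta3 (16.4 ± 3.37 and 13.8 ± 5.16 FPKM, 0.359) did not pass either. The summed level of the family was 842.1 ± 78.9 FPKM in WT and 793.0 ± 148.3 FPKM in HIF2.

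The microsomal glutathione transferases, membrane enzymes of conjugation, peroxide reduction and leukotriene synthesis, had the largest summed level of the 5 families, at 1211.6 ± 236.4 FPKM in WT and 1133.3 ± 193.4 FPKM in HIF2, and gave 0 calls. Mgst3 made up 70.1% of the family's WT sum and ran from 554.9 to 1116.2 FPKM in WT and from 448.9 to 935.7 FPKM in HIF2 (log2 difference -0.08, SE 0.15, limma adjusted p = 0.764). Mgst1 lay inside its WT range of 158.6 to 254.4 FPKM in all 9 HIF2 libraries (log2 difference 0.03, SE 0.10, limma adjusted p = 0.873). Mgst2 was below the WT median in all 9 HIF2 libraries, at 177.9 ± 26.7 FPKM in WT and 145.8 ± 35.3 FPKM in HIF2, without passing (log2 difference -0.32, limma adjusted p = 0.158). By limma, 0 of the 3 reached an unadjusted p under 0.05, and 0 passed by the exact rank test.

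**Figure D3:**
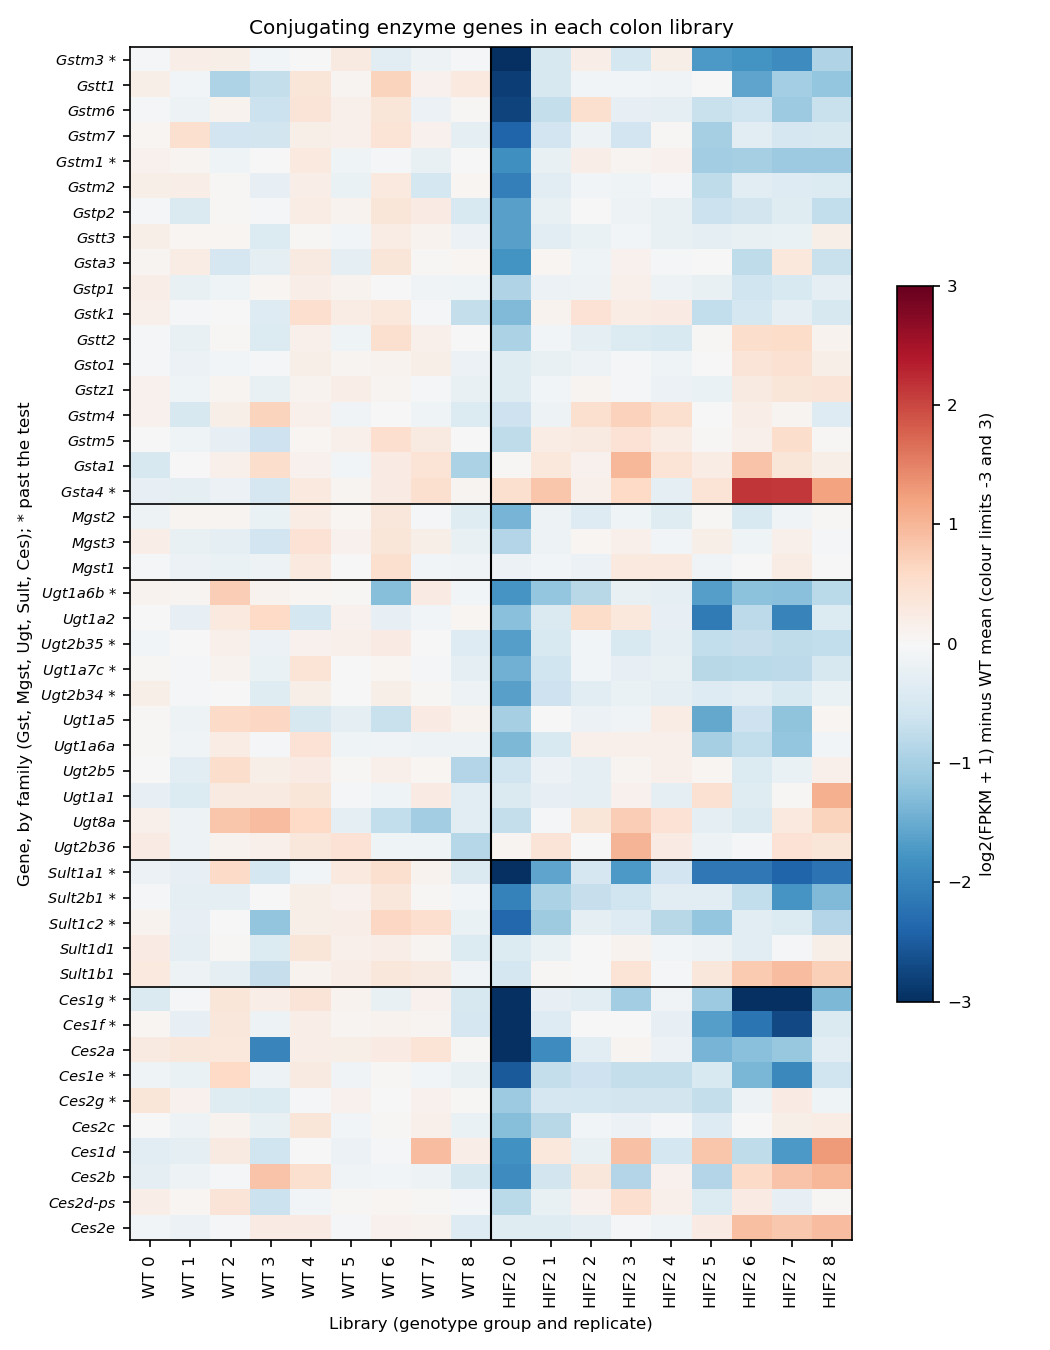
Level of each tested gene in each library as log2(FPKM + 1) minus the WT mean (blue lower, red higher, colours limited at -3 and 3), with genes in rows by family, asterisks on genes past the test and the 18 libraries in columns. HIF2 replicate 0 is low for most genes, and HIF2 replicates 6 to 8 combine low Ces1g, Gstm1 and Sult1a1 with high Gsta4, Ces2e and Sult1b1.

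The enzymes varied more among HIF2 libraries than among WT libraries. The median coefficient of variation over the 47 genes was 21.2% in WT and 37.5% in HIF2, and it was larger in HIF2 for 41 of 47, or 87.2%. Over all tested genes the medians were 18.5% and 24.9%, and the coefficient was larger in HIF2 for 69.1%. HIF2 replicate 0 had the lowest value of all 18 libraries for 36 genes and lay below the WT range for 38, or 80.9%, against 31.0% of all tested genes. Below the WT range were 23 genes in HIF2 replicate 5, 17 in each of replicates 6 and 7, 14 in replicate 1, 13 in replicate 8, 8 in replicate 3, 5 in replicate 4 and 4 in replicate 2. Above the WT range were 7, 8 and 7 genes in replicates 6, 7 and 8, 6 in replicate 3, and 0 or 1 in the others. Of all tested genes, 14.8% to 21.1% were below the WT range in replicates 1 to 8, against 48.9% of the 47 genes in replicate 5, 36.2% in each of replicates 6 and 7, and 8.51% and 10.6% in replicates 2 and 4. Above the range were 14.2% to 24.6% of all tested genes over the 9 libraries, and 0.0% to 17.0% of the 47. Replicates 2 and 4, with 42 of 47 genes each inside the WT range, were the libraries with Slc11a2 at the WT level. Left out singly, HIF2 replicate 2 or 4 gave 16 lower genes, HIF2 replicate 0 gave 10 and WT replicate 3 gave 13, and 10 to 12 of the 13 lower genes were among them. With HIF2 replicates 2 and 4 both left out, a comparison chosen after the data were seen, 20 of the 47 genes were lower (42.6%, against 11.2% of all genes) and Gsta4 was higher (2.13%, against 10.6%). The lower genes then included 12 of the 13, without Ces2g (log2 difference -0.41, limma adjusted p = 0.088), and also Ces2a, Gstm6, Gstm7, Gstp1, Gstp2, Gstt1, Ugt1a2 and Ugt1a6a.

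**Figure D4:**
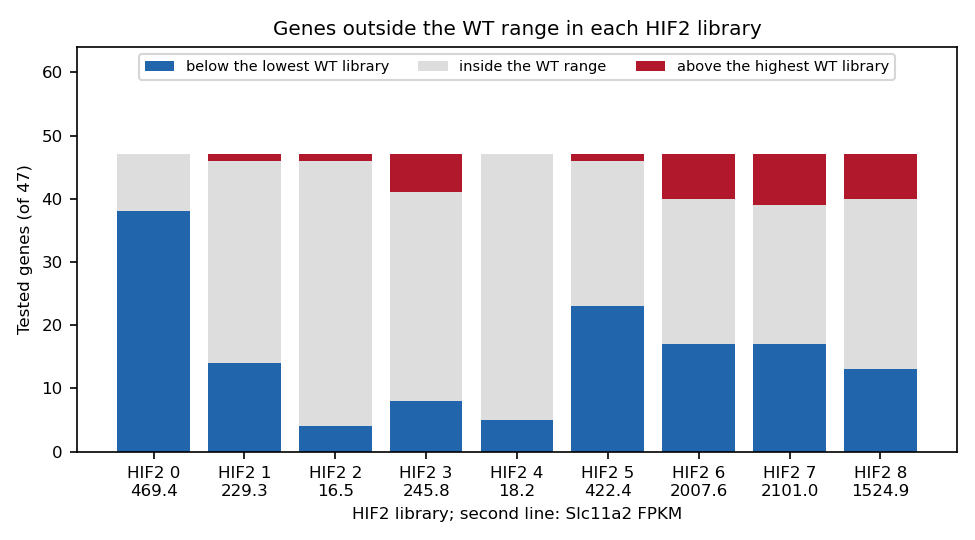
Number of the 47 tested genes (vertical axis) below the lowest WT library (blue), inside the WT range (grey) and above the highest WT library (red) in each HIF2 library, with the Slc11a2 level in FPKM under each bar. Replicate 0 has 38 genes below the range and replicates 2 and 4 have 4 and 5.

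Differences also depended on which HIF2 libraries were compared. HIF2 replicates 6, 7 and 8, whose smooth muscle marker level was in the range of the 8 WT libraries other than replicate 3, were set against those 8. The labels do not give this split of the HIF2 libraries, which rests on levels measured in the same libraries. In that comparison 18 of the 47 genes were lower (38.3%, against 10.1% of all genes tested) and 6 were higher (12.8%, against 8.99%). The higher genes were Gsta4 (log2 difference 1.76, limma adjusted p = 0.000252), Ces2b (0.92, 0.00315), Ces2e (0.91, 0.000331), Sult1b1 (0.73, 0.00303), Gsto1 (0.33, 0.0408) and Gstz1 (0.32, 0.0303). Among the lower genes, the log2 difference was -2.88 for Ces1g (limma adjusted p = 0.000916), -2.32 for Sult1a1 (2e-05) and -1.06 for Gstm1 (3.02e-05).

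In HIF2 replicates 0 to 5 against all WT libraries, 9 of the 47 genes were lower (19.1%, against 13.4% of all genes) and 0 were higher (against 12.4%). There the log2 difference was -1.68 for Sult1a1 (limma adjusted p = 0.00334), -0.82 for Sult2b1 (0.00877) and -0.95 for Ces1e (0.0124), and it was -1.12 for Ces1g (0.0789) and -0.45 for Gstm1 (0.224), which did not pass. It was 0.37 for Gsta4 (limma adjusted p = 0.136), -0.15 for Ces2e (0.356), -0.62 for Ces2b (0.136) and 0.04 for Sult1b1 (0.887). The 2 comparisons share 8 WT libraries, and the difference between them was not tested. HIF2 replicates 6 to 8 also had the highest Slc11a2 and at most 0.217 FPKM of the Y-linked gene Ddx3y, as had WT replicates 5 to 8 and HIF2 replicate 3. In these 5 libraries Gsta4 was at 43.2 to 62.3 FPKM. It was at 28.5 to 50.6 FPKM in WT replicates 0 to 4 and at 33.8 to 74.0 FPKM in HIF2 replicates 0, 1, 2, 4 and 5. With the Y-linked level as a covariate over all 18 libraries, 13 genes were lower and Gsta4 was higher (log2 difference 0.86, limma adjusted p = 0.00741). Libraries with low Ddx3y were in both groups, so that fit does not address replicates 6 to 8 alone. The Slc11a2 level, the smooth muscle marker level and the low Ddx3y level cannot be told apart within replicates 6 to 8. With the smooth muscle marker level as a covariate over all 18 libraries, 10 of the 47 genes were lower (21.3%, against 7.23% of all genes) and 3 were higher, Gsta4, Ces2e and Sult1b1 (6.38%, against 6.73%). With the epithelial marker level as a covariate, 14 were lower (29.8%, against 10.4%) and 2 were higher (4.26%, against 10.2%).

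**Figure D5:**
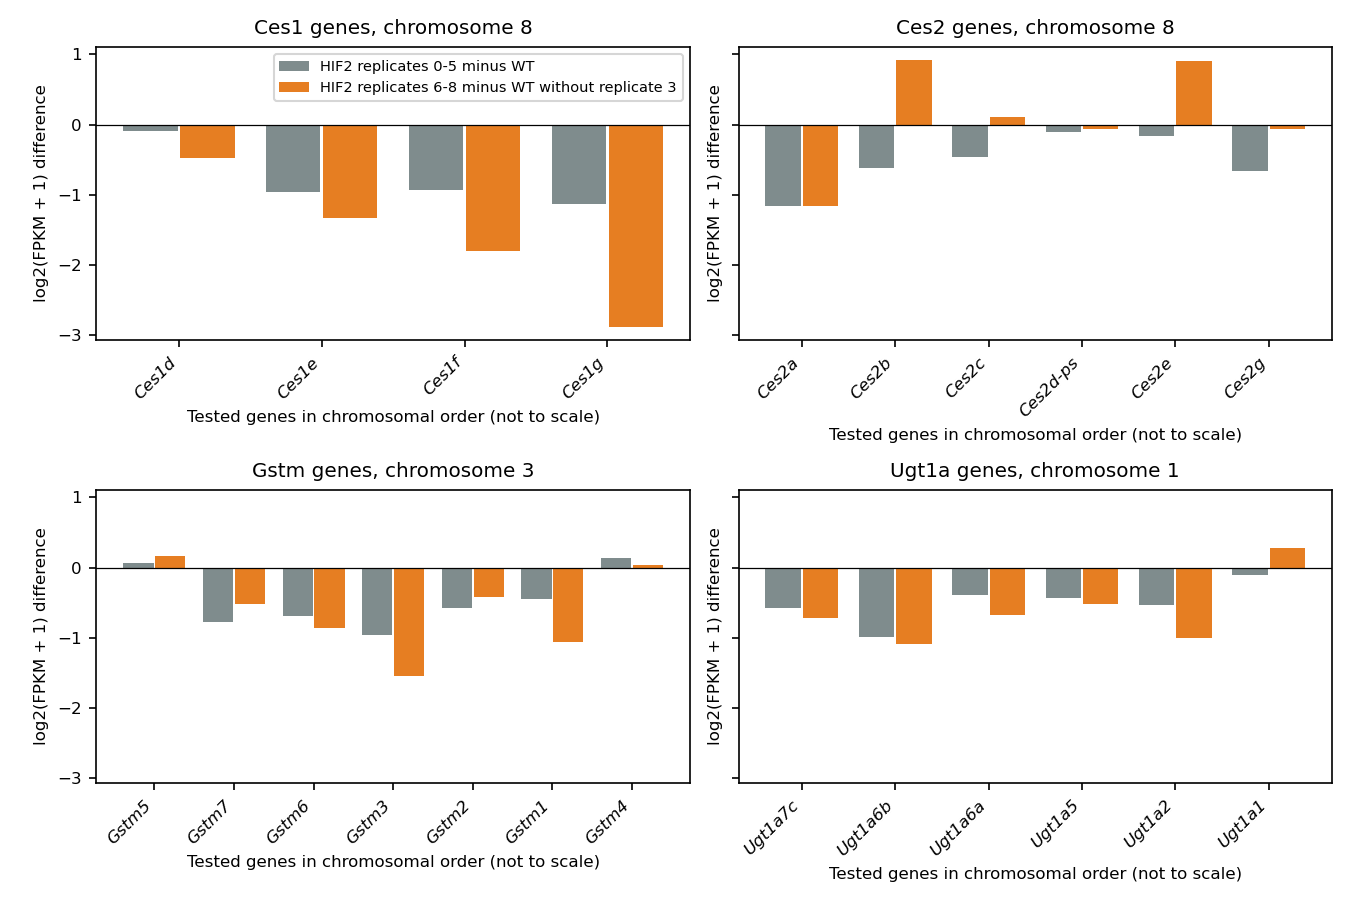
Log2(FPKM + 1) difference of tested genes in 4 chromosomal clusters, in chromosomal order, for HIF2 replicates 0 to 5 minus WT (grey bars) and HIF2 replicates 6 to 8 minus WT without replicate 3 (orange bars). The Ces1 bars all point down, to -2.88 for Ces1g, whereas the orange bars of Ces2b and Ces2e point up, to 0.92 and 0.91.

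Markers of other tissues moved between the groups. Of the smooth muscle markers 11 of 12 were higher, as were 12 of 12 fibroblast, 8 of 8 endothelial, 7 of 7 macrophage, 4 of 5 mesothelial and 3 of 3 tested neuronal and glial markers. Among all genes tested, 11.0% were higher and 11.1% lower. The mean log2 smooth muscle level of HIF2 replicates 6 to 8, at 2.18 to 3.37, was inside the WT range. Of 12 pan-epithelial markers 4 were lower, of 14 absorptive colonocyte markers 8 were lower, and of 7 goblet markers 3 were lower and 1 higher. The absorptive colonocyte markers summed to 10565.4 to 16473.2 FPKM in WT and 5653.3 to 13259.8 FPKM in HIF2. Of 13 markers of small intestine and pancreas 6 were lower, with sums of 562.0 to 4030.0 FPKM in WT and 149.3 to 2062.8 FPKM in HIF2. The liver marker list, of interest because Ces1 and Ugt2b genes are also liver genes, had 0 of 5 tested genes called and summed to 19.3 to 39.3 FPKM in WT and 6.58 to 51.0 FPKM in HIF2. Adipocyte markers had 0 of 9 called, with sums of 17.6 to 134.9 and 18.3 to 143.2 FPKM, and the sex-linked list had 0 of 5. Apart from the smooth muscle and epithelial levels used as covariates, the part of these markers in the enzyme differences was not tested.

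Some genes of donor supply and transport that serve these enzymes were lower as well, where 11.1% of all genes tested were lower and 11.0% higher. In the list for sulphate supply 3 of 10 genes were lower and 0 higher: the sulphate transporters Slc26a2 (282.6 ± 50.3 to 132.0 ± 42.6 FPKM, log2 difference -1.13, limma adjusted p = 0.000198) and Slc13a1 (-1.62, 0.000724) and the anion exchanger Slc26a3 (-1.97, 0.00782). The genes Papss1 and Papss2, which make PAPS, did not pass (limma adjusted p = 0.341 and 0.674). Slc26a3 also counts among the absorptive colonocyte markers above. In the list for glucuronic acid supply 2 of 6 were lower and 1 was higher. Ugdh, which makes the glucuronic acid donor, went from 271.6 ± 37.2 FPKM in WT to 168.5 ± 60.4 FPKM in HIF2 (log2 difference -0.78, limma adjusted p = 0.0124). Slc35d1, a carrier of nucleotide sugars, differed by -0.89 (0.0313), and Gusb, the lysosomal enzyme that removes glucuronic acid, by 0.52 (0.00359).

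Of 10 tested transporters in a list of efflux pumps and other carriers, 4 were lower and 0 higher, against 11.1% and 11.0% of all genes tested. The lower genes included Slco4a1, an organic anion carrier and not an efflux pump (limma adjusted p = 0.00795). Abcb1a, a P-glycoprotein that exports drugs, went from 343.7 ± 59.9 FPKM in WT to 142.8 ± 95.2 FPKM in HIF2 (log2 difference -1.54, limma adjusted p = 0.00288). Abcc2, which exports glutathione and glucuronide conjugates, was low, at 2.87 ± 1.1 and 0.684 ± 0.26 FPKM (-1.17, 9.77e-05), and Abcc3 of the same family was at 93.2 ± 15.8 and 57.1 ± 15.8 FPKM (-0.73, 0.00202). In the glutathione list 3 of 18 were higher and 2 lower, against 11.0% and 11.1% of all genes tested. The higher genes were the peroxidases Gpx8 (2.13, 0.000399) and Gpx3 (1.29, 0.00344) and the gamma-glutamyltransferase Ggt5 (0.90, 0.00199). The lower genes were the hydroxyacylglutathione hydrolase Hagh (-0.58, 0.00934) and the gamma-glutamyltransferase Ggt6 (-0.54, 0.0473), all by limma with adjusted p.

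Regulators of these families, and genes of their pathways, were more often lower than higher where they passed. Of 14 nuclear receptors and epithelial factors 7 were lower and 0 higher, with a median log2 difference of -0.39. The receptors Nr1i2 and Nr1i3 were among those that did not pass (limma adjusted p = 0.856 and 0.373). Rxra, the shared partner of many nuclear receptors, was at 20.0 ± 2.03 FPKM in WT and 14.3 ± 3.19 FPKM in HIF2 (-0.48, limma adjusted p = 0.00271). The intestinal factors Cdx1 (113.0 ± 11.9 and 78.7 ± 16.1 FPKM, -0.54, 0.00288) and Cdx2 (82.1 ± 15.9 and 54.3 ± 14.6 FPKM, -0.60, 0.00714) were lower too. In the list around NRF2, the main inducer of glutathione transferases, 4 of 20 genes were lower, with Nfe2l2 itself at 95.0 ± 9.13 and 72.0 ± 11.6 FPKM (-0.41, limma adjusted p = 0.00423), Osgin1 (-0.52, 0.00726) and G6pdx (-0.27, 0.0195), and 1 was higher, Hmox1 (1.27, 0.00586). Of 4 tested genes around the aryl hydrocarbon receptor 2 were higher, Tiparp (0.77, limma adjusted p = 0.00744) and Ahr (0.32, 0.0277). The other 6 of the 10 listed were under the level for testing. The other conjugating enzymes gave 2 higher and 1 lower of 10, and the other drug and ester hydrolases 1 higher and 2 lower of 14. Over all 13976 genes, 11.0% were higher and 11.1% lower.

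Over the 47 tested genes, 15 had less than 80% of their 50-base stretches unique to the gene, among them 4 of the called genes, Gstm1, Gstm3, Ugt1a6b and Ugt1a7c. The 9 other lower genes were above that share, with 91.7% for Sult1a1, 89.9% for Sult2b1, 99.3% for Sult1c2, 96.0% for Ces2g, 96.8%, 98.4% and 98.3% for Ces1e, Ces1f and Ces1g, and 98.5% and 99.7% for Ugt2b34 and Ugt2b35. Every such stretch of Gsta4, the higher gene, was unique.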

How the data were processed

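RNA of 18 mouse colon samples was measured by RNA sequencing of poly(A) RNA. The authors deposited FPKM values per gene in 1 table of 27131 rows. Tools listed, per the submitters' processing notes, are TopHat2 2.0.9, Bowtie2 2.1.0.0, Cuffdiff 2.1.1, Cufflinks and FastQC, with mm10 as genome, and their roles and any scaling beyond FPKM are not described there. Sample groups come from the sample labels. Because FPKM are not counts, no count test was used.

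Groups were compared with limma 3.58.1 (R 4.3.3; trended prior, 2-sided) on log2(FPKM + 1) for 13976 genes with a mean of at least 1 FPKM, with Benjamini-Hochberg adjustment over all of them and a threshold of 0.05; the scale understates changes of low genes. Alternatives changed the pseudocount, filter, scaling, samples, covariates and test. The exact rank test used all 48620 splits of 18 libraries into 9 and 9. The code was tested on simulated data. Library values were also compared between same-numbered samples. Positions come from GENCODE M21 (mm10, 1-based; all 81 genes matched) and promoters from RefSeq (GRCm38.p6). Uniqueness is the share of 50-base stretches of a gene's longest transcript found in no other gene's transcripts. Python 3.11.15, pandas 2.3.3, scipy 1.17.1 and matplotlib 3.10.9 were used.

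In each family, named genes are those past the threshold and those with a mean of at least 10 FPKM, and pathway genes are at most 3 per direction by smallest adjusted p. A few others are named for a single value and were chosen after their values were seen. The members, 9 pathway lists and 13 marker lists were chosen with earlier results of these data known.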

Additional observations from a re-analysis of the deposited data

Results flagged for a closer look

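In the 94 groups of 9 libraries (47 genes in WT and in HIF2), 17 had a highest or lowest library set apart from the rest by more than 0.493 of the group's range on the log2(FPKM + 1) scale, where chance sets about 1 in 20 groups apart. Of these, 11 were HIF2 replicate 0 at the low end. The 94 groups reuse the same libraries, so the flags are not independent of each other. Its values there were 12.0 FPKM for Gstm2 (next lowest 30.8), 18.6 for Gstm5 (33.0), 0.958 for Gstm6 (5.22), 0.882 for Gstm7 (3.97) and 9.22 for Gstp2 (18). They were 9.45 FPKM for Gstt3 (24.3), 66.9 for Mgst2 (127.4), 448.9 for Mgst3 (743.1), 90.0 for Ugt2b34 (181.4), 3.91 for Ugt2b35 (8.06) and 4.77 for Sult1c2 (12.2). That library also had the highest Epas1, at 35.9 FPKM. Without it, 10 of the 47 genes were lower, and Ces1f, Ces2g and Gstm1 of the 13 no longer passed.

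WT replicate 3, the WT library with the most smooth muscle marker RNA, was lowest for Ces2a at 40.6 FPKM (next lowest 166.6), Sult1c2 at 12.0 (23.9) and Ces2d-ps at 0.575 (1.31). WT replicate 6 was lowest for Ugt1a6b at 4.87 FPKM (12.3), and WT replicate 8 for Ugt2b36 at 0.785 FPKM (1.9). HIF2 replicate 3 was highest for Ugt2b36 at 5.48 FPKM (next highest 3.35).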

How the results depend on the processing

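Of the 14 called genes, Sult1a1, Sult2b1, Ces1e, Ugt1a6b, Ugt1a7c and Ugt2b35 kept their direction and stayed past the threshold under all 35 alternatives, and 9 of the 14 stayed past it with each of the 18 libraries left out. Of the genes that did not pass, 15 passed under some alternative. Leaving out 1 library gave 9 to 16 lower and 0 to 1 higher genes (0 to 5 lower and 0 to 1 higher Gst, 4 to 5 lower Ugt, 3 lower Sult, 2 to 5 lower Ces). With HIF2 replicates 2 and 4 both left out, chosen after seeing the data, 20 genes were lower, 7 of them Gst. The number of higher genes was 3 with no filter and with the smooth muscle covariate, 2 with array weights and the epithelial covariate, 6 for HIF2 replicates 6 to 8, 0 for HIF2 replicates 0 to 5 and 0 by the exact rank test. Of the Gst genes 3 were higher for HIF2 replicates 6 to 8, 2 with array weights, and 0 for HIF2 replicates 0 to 5 and by the exact rank test. Lower Gst genes numbered 5 with TPM scaling and for HIF2 replicates 6 to 8, 0 for HIF2 replicates 0 to 5, and 1 with the filter at 5 FPKM, no filter, upper quartile scaling, quantile normalization and the exact rank test. Higher Sult genes numbered 2 with no filter and 1 with either marker covariate and for HIF2 replicates 6 to 8. Higher Ces genes numbered 1 with the smooth muscle covariate and 2 for HIF2 replicates 6 to 8, and lower Ces genes 2 with that covariate and for HIF2 replicates 0 to 5. Over all genes, 640 were higher with the filter at 5 FPKM, where fewer genes are tested, 2407 with no filter, and 940 higher and 1011 lower with the smooth muscle covariate.

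Same-numbered WT and HIF2 libraries did not deviate together: the correlations of their deviations ran from -0.0333 to 0.112, and 1 library correlated best with its own number. With the replicate number as a block, 2 genes were higher, both Gst, and 1 Gst, 3 Ugt, 3 Sult and 2 Ces genes were lower.

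Differences that changed sign were those of genes that had not passed. With the smooth muscle covariate they were 0.33 for Ces2b, 0.053 for Ces2c, 0.11 for Ces2d-ps, -0.17 for Gstm4, 0.32 for Gstt2, 0.061 for Mgst3, 0.045 for Sult1d1 and -0.074 for Ugt8a. With the epithelial covariate they were -0.049 for Gstm4, 0.12 for Gstt2, 0.044 for Mgst3 and -0.23 for Ugt8a. For HIF2 replicates 6 to 8 they were 0.92 for Ces2b, 0.11 for Ces2c and 0.34 for Gstt2. For HIF2 replicates 0 to 5 they were -0.15 for Gsto1, -0.14 for Gstz1, -0.15 for Ces2e and -0.10 for Ugt1a1. With TPM scaling they were -0.024 for Gsto1, -0.013 for Gstz1, -0.007 for Mgst1 and -0.023 for Ugt1a1. With array weights they were 0.063 for Ces1d, 0.002 for Ces2d-ps, -0.018 for Gsto1 and -0.013 for Gstz1, with quantile normalization -0.048 for Gstm4, and without HIF2 replicates 2 and 4 -0.035 for Gstm4. By the exact rank test, with the difference of medians, they were 0.24 for Ces2b, -0.005 for Ces2e, -0.14 for Gstz1 and -0.22 for Ugt1a1. With a library left out, ranges crossed 0 for Ces1d (-0.379 to 0.009), Ces2b (-0.286 to 0.074), Ces2d-ps (-0.146 to 0.025), Gsto1 (-0.043 to 0.061), Gstz1 (-0.023 to 0.071), Mgst1 (-0.003 to 0.09), Mgst3 (-0.153 to 0.019), Ugt1a1 (-0.118 to 0.069) and Ugt8a (-0.016 to 0.23). The causes of these changes were not tested. Read depth is unknown, so no counting interval can be given.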
